A study of Mus musculus with 63 samples.

Results

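The genes followed here are 10 markers of brain endothelial cells and the blood-brain barrier: Flt1, Kdr, Tek, Cldn5, Pecam1, Slc2a1, Abcb1a, Mfsd2a, Slco1a4 and Ly6c1. They were named by symbol as known markers, with earlier results of these data known, and they make up 10 of the 56980 Ensembl genes in the count tables. All 10 had at least 10 counts in total in every comparison and were tested in each. Their RNA was most abundant in the libraries sorted as CaMKII positive neurons, where the 10 genes together took a mean of 0.815% of all counts. For 9 of the 10 genes, every CaMKII positive library lay above every library of the other 3 sorted populations. Of the 33150 genes tested between populations, 1.64% did so. Burn against sham changed none of the 10 past the thresholds in any population.

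The libraries came from female C57BL/6J mice that were 12 weeks old at the start. Every mouse, burn and sham alike, was injected in both motor cortices with 2 adeno-associated viruses, which carried eGFP under the CaMKII promoter and mRuby2 under the mDlx enhancer. Burn mice then received a burn of 7 to 8% of the body surface on the right flank, and sham mice were shaved only. After 5 weeks, cells with eGFP alone (CaMKII positive) and cells with both fluorophores (CaMKII-mDlx double-positive) were sorted from the motor cortex, and ACSA2-positive and CD11b-positive cells from the cortex behind it. GEO's labels call these excitatory neurons, inhibitory neurons, astrocytes and microglia. After leaving out mouse 3 and the double-positive library of mouse 8, as the study did, there were 4 burn and 6 sham CaMKII positive libraries, 9 and 7 double-positive, 9 and 8 ACSA2-positive, and 8 and 7 CD11b-positive. Each library is 1 population of 1 mouse, so n counts mice. The neuronal gates rest on viral promoters rather than on an endogenous neuronal protein, and no endothelial population was sorted. Total counts per kept library ran from 13346143 to 134703744, with a median of 24339895.5, so that 3 counts were at most 0.225 CPM in any of them.

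Brain endothelial cells line the vessels and, unlike those of most organs, are sealed by tight junctions. They take up nutrients through dedicated carriers and return drugs and other lipophilic molecules to the blood through efflux pumps. Vascular endothelial growth factors act on Flt1 and Kdr, angiopoietins act on Tek, and Wnt and norrin signals from neural cells maintain the barrier programme.

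Promoters were read for the members because these genes were highest in the same libraries. RefSeq (build GRCm38.p6) gave the start of 9 of the 10 genes, and Pecam1 was not matched. The 250 bases before the start are shown for the 3 growth factor receptors and for the 2 transporters whose levels differed from the rest, and each is written 5′ to 3′ on the strand of the gene. Capitals mark matches, on either strand, to the letters CCGGAA or CAGGAA (core of ETS factor sites), CTTTGA (TCF/LEF), ACAAT (SOX) and GGGCGG (KLF and SP factors).
Flt1, chr5:147726012-147726261, minus strand: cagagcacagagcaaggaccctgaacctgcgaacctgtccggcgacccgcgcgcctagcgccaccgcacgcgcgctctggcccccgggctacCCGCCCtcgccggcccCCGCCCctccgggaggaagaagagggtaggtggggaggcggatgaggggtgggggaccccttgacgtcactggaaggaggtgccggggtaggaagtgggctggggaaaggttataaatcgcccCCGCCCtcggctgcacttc
Kdr, chr5:75978456-75978705, minus strand: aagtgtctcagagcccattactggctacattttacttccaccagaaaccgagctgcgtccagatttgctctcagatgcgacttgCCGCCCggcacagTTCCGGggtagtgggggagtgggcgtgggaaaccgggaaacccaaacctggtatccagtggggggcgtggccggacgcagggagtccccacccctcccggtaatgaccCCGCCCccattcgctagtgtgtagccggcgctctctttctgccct
Tek, chr4:94739039-94739288, plus strand: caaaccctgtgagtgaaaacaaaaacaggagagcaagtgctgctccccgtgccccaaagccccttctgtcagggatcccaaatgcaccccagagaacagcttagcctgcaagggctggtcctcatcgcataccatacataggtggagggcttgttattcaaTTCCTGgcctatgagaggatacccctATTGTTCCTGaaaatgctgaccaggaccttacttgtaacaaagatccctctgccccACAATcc
Slc2a1, chr4:119108495-119108744, plus strand: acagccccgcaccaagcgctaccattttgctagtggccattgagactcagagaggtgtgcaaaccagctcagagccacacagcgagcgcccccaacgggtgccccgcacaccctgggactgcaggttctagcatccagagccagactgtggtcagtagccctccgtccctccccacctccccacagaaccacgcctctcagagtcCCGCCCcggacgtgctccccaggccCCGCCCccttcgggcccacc
Mfsd2a, chr4:122961189-122961438, minus strand: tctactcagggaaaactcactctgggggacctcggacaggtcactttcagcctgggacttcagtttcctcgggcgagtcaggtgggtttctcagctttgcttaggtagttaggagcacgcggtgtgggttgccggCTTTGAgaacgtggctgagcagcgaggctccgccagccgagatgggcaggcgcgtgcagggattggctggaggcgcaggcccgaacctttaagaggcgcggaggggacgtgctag
GGGCGG was present in 4 of the 9 promoters (Flt1, Kdr, Cldn5, Slc2a1), against 32.7% of the 32851 promoters in the table. CTTTGA was present in 2 of 9 (Abcb1a, Mfsd2a), against 13.8% of all promoters. ACAAT was present in 2 of 9 (Tek, Slco1a4), against 27.7%. CCGGAA was present in Kdr only, against 12.0% of promoters, and CAGGAA in Tek only, against 25.7%. In Tek 1 ACAAT match and 1 CAGGAA match, both on the opposite strand, overlap by 1 letter. The Ly6c1 promoter held none of these letters. Flt1 and Mfsd2a, which differ in their levels across populations as described next, shared none of the 5 motifs, and these matches are a description of letters, not of bound sites.

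Markers of the labelled cell types were checked first, and those of neurons were low in both populations labelled as neurons. In CaMKII positive libraries the 8 endothelial markers, which include 5 of the 10 genes, summed to 4928 ± 1881 (mean ± SD over libraries, as for all levels here) CPM (the usual scaling of a count by the total count of its library, on which 8147 CPM are 0.815% of all counts), the 7 astrocyte markers to 18887 ± 3391 CPM and the 10 mural cell markers to 1398 ± 325 CPM. The 6 excitatory neuron markers summed to 166 ± 137 CPM there, of which Camk2a gave 123 CPM and Slc17a7, the vesicular glutamate transporter of cortical excitatory neurons, 12.4 CPM. In double-positive libraries the 8 inhibitory neuron markers summed to 2.02 ± 0.960 CPM, with Gad1 at 0.724 and Gad2 at 0.572 CPM, while the 7 microglia markers summed to 20078 ± 3804 CPM against 24258 ± 3205 CPM in CD11b-positive libraries. ACSA2-positive libraries held 39512 ± 4540 CPM of astrocyte markers. Microglia markers summed to 964 ± 487 CPM in CaMKII positive and 86.6 ± 31.3 CPM in ACSA2-positive libraries. The 7 border macrophage and monocyte markers summed to 48.1 ± 41.3 and 0.983 ± 0.981 CPM in the same order. The 5 red cell markers summed to at most 21.6 CPM in any CaMKII positive library, and Hbb-bt was at 0 in each. The part of these other cell types in the levels of the 10 genes was not tested.

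Flt1 and Kdr encode receptors for vascular endothelial growth factors. The Flt1 level in CaMKII positive libraries had a lowest value of 1669, a median of 2108 and a highest value of 4607 CPM. In ACSA2-positive libraries it was 67.0, 307 and 622 CPM, in double-positive libraries 7.21, 17.9 and 268 CPM, and in CD11b-positive libraries 3.16, 13.4 and 55.3 CPM. The lowest CaMKII positive library thus lay above the highest of all others, while the double-positive and CD11b-positive ranges overlapped. The Kdr level was 340.4, 408 and 939 CPM in CaMKII positive libraries, with means of 57.8 ± 26.3 CPM in ACSA2-positive (n = 17), 23.7 ± 15.8 in double-positive (n = 16) and 15.1 ± 4.63 in CD11b-positive libraries (n = 15). Kdr kept a higher share of its CaMKII positive level in the last 2 populations than Flt1 did. Tek, the angiopoietin receptor, had 203, 279.9 and 565 CPM in CaMKII positive libraries and means of 40.8 ± 17.7, 5.47 ± 8.29 and 2.33 ± 2.39 CPM in ACSA2-positive, double-positive and CD11b-positive libraries.

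Cldn5 encodes claudin 5, the main tight junction protein of brain endothelium. Its level was 368, 489.8 and 1232 CPM (lowest, median, highest) in CaMKII positive libraries, with means of 71.9 ± 33.7 CPM in ACSA2-positive, 8.96 ± 14.4 in double-positive and 2.88 ± 2.18 in CD11b-positive libraries. Pecam1, an adhesion molecule of endothelial contacts that is also present on leukocytes, had 279, 373 and 841 CPM in CaMKII positive libraries. Its means in the other populations were close together, at 50.2 ± 23.7 CPM in ACSA2-positive, 39.1 ± 14.2 in double-positive and 45.3 ± 4.54 in CD11b-positive libraries. It was the only member with a higher mean in CD11b-positive than in double-positive libraries over all batches, but in batch 3 (10 libraries each) the same order held for Flt1 (24.6 against 14.6 CPM), Tek, Cldn5, Abcb1a, Slco1a4 and Ly6c1 too. Ly6c1, a small surface protein of brain capillaries and of some leukocytes, had 228, 329.8 and 740.4 CPM in CaMKII positive libraries, and means of 45.9 ± 19.9, 5.83 ± 9.68 and 2.899 ± 2.72 CPM in the other 3 populations in the same order. Of the 50-base windows of Ly6c1 transcripts, 32.77% are shared with Ly6c2, Ly6a or Ly6i, so its counts may be split among them.

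Slc2a1 encodes the glucose carrier of the barrier, which astrocytes also use. It had 764, 974 and 1991 CPM in CaMKII positive libraries and means of 403 ± 58.2 CPM in ACSA2-positive, 113 ± 29.2 in double-positive and 80.5 ± 15.5 in CD11b-positive libraries. The gap between its lowest CaMKII positive library and the highest other library, 764 against 514 CPM, was narrower than that of Flt1. Abcb1a, the P-glycoprotein efflux pump, had 549, 784 and 1687 CPM in CaMKII positive libraries and means of 102 ± 48.4, 15.7 ± 28.8 and 7.502 ± 6.21 CPM in the others. Gm42686 on the opposite strand overlaps 10.09% of the exon bases of Abcb1a, and Gm12868 2.99% of those of Slc2a1, so without strand these counts could be mixed. Of the windows of Abcb1a, 22.53% are shared with Abcb1b, Gm42686 or Abcb4. Mouse 10 alone carried much of the double-positive means: without it they were 25.4 CPM for Flt1, 3.60 for Tek, 5.73 for Cldn5, 8.83 for Abcb1a and 3.57 for Ly6c1, each lower by over 1.5-fold. Slco1a4, an organic anion carrier, had 823, 1044 and 2148 CPM in CaMKII positive libraries and means of 149 ± 72.9, 18.6 ± 28.5 and 8.27 ± 9.55 CPM in the others. It followed Flt1 closely in the order of populations. Mfsd2a, a lysophospholipid carrier that also restrains transcytosis, was the exception: it had 178, 255 and 388 CPM in CaMKII positive libraries and 97.4, 178 and 311 CPM in ACSA2-positive libraries, so the 2 ranges overlapped. Its means in double-positive and CD11b-positive libraries were 5.73 ± 5.49 and 1.56 ± 1.77 CPM.

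**Figure D1:**
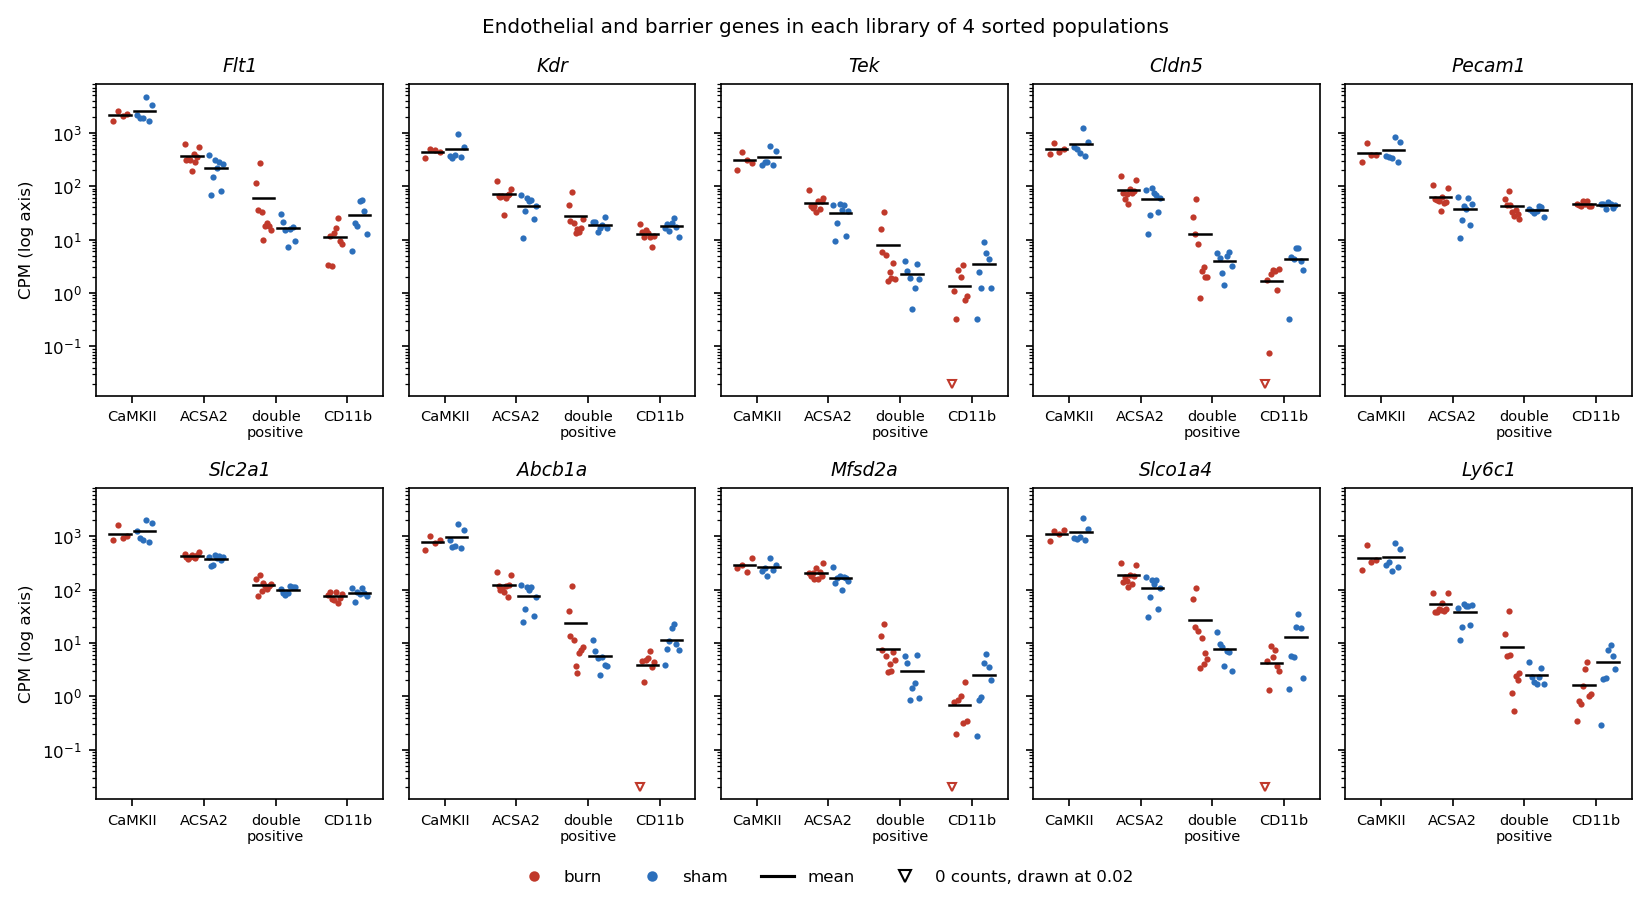
Level of each of the 10 genes in every library (y axis, CPM on a log axis), by sorted population on the x axis. Red points are burn and blue points sham mice, bars are group means, and open triangles mark 0 counts, drawn at 0.02. The CaMKII positive points lie above all others in 9 panels, as for 1.64% of the 33150 genes tested. In the Mfsd2a panel they overlap the ACSA2-positive points.

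Divided by exon length, so that genes can be set side by side, Cldn5 had the highest mean level in CaMKII positive libraries at 403 CPM per kb. Slc2a1 followed at 341, Ly6c1 at 239.8, Slco1a4 at 181, Flt1 at 178, Abcb1a at 162 and Mfsd2a at 120.3 CPM per kb. Pecam1, Tek and Kdr were lowest at 72.6, 70.1 and 51.8 CPM per kb. In ACSA2-positive libraries the 2 leading genes were Slc2a1 at 115 and Mfsd2a at 83.6 CPM per kb, with Cldn5 next at 50.8, Ly6c1 at 27.4, Slco1a4 at 23.2 and Flt1 at 22.0.

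The 4 populations were compared in 1 fit over all 58 libraries with terms for sequencing batch and treatment (edgeR quasi-likelihood test, Benjamini-Hochberg adjustment over 33150 genes). A gene was called where its adjusted p was at most 0.05 and its log2 fold change (log2FC) at least 1 in size. In bulk libraries of sorted cells, more cells of a type and more RNA of a gene per cell cannot be told apart. CaMKII positive libraries were higher than ACSA2-positive libraries for 9 of the 10 genes, where 14.1% of all genes were called higher. The log2FC was 2.95 ± 0.43 (SE) for Flt1, 2.93 ± 0.24 for Kdr and 2.93 ± 0.45 for Tek. Thus the 3 receptors differed between the populations by nearly the same amount. It was 2.899 ± 0.46 for Cldn5, 3.08 ± 0.21 for Pecam1 and 2.99 ± 0.44 for Ly6c1. Of the transporters, Abcb1a (3.05 ± 0.46) and Slco1a4 (2.88 ± 0.49) lay in the same range. The log2FC of Slc2a1 was smaller, 1.35 ± 0.14 with an adjusted p of 3.0e-12 in the same edgeR fit. That of Mfsd2a was 0.34 ± 0.38, with an adjusted p of 0.549 in that fit, and was not called.

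The comparisons between populations share libraries, so each is given on its own. Against double-positive libraries all 10 genes were called higher in CaMKII positive libraries (27.7% of all genes), from 3.24 ± 0.15 for Slc2a1 to 6.18 ± 0.56 for Cldn5 on the log2 scale. Against CD11b-positive libraries all 10 were also called higher (29.6% of all genes), from 3.27 ± 0.21 for Pecam1 to 7.52 ± 0.57 for Cldn5. The same 2 genes, Pecam1 and Slc2a1, thus had the 2 smallest differences in both. ACSA2-positive libraries were called higher than CD11b-positive libraries for 9 genes (32.1% of all genes), with Mfsd2a at 7.09 ± 0.46 far above Flt1 at 3.87 ± 0.43. Pecam1 was not called there, at 0.19 ± 0.18 with an adjusted p of 0.366 (edgeR). Double-positive libraries were called lower than ACSA2-positive libraries for 9 genes (29.1% of all genes), and again not for Pecam1, at -0.38 ± 0.18 with an adjusted p of 0.0568 (edgeR). Between double-positive and CD11b-positive libraries only Mfsd2a was called, at 2.00 ± 0.43 with an adjusted p of 0.000667 (edgeR), where 6.37% of all genes were called higher. In batch 3 alone the Mfsd2a difference was 0.62 and was not called, and those of Flt1, Tek, Cldn5, Abcb1a, Slco1a4 and Ly6c1 turned negative.

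That 9 of the 10 genes had every CaMKII positive library above every other library compares with 1.64% of the 33150 genes tested. For those 9 genes the order within each mouse follows from this and adds nothing to it. For Mfsd2a the CaMKII positive library was higher than the ACSA2-positive library in 9 of the 10 mice with both libraries. The ratio within a mouse had a median of 7.97 for Flt1 and ran from 2.68 to 21.1. For Slc2a1 it had a median of 2.28 (1.76 to 4.62), and for Mfsd2a a median of 1.32 (0.857 to 2.24).

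Across the 10 CaMKII positive libraries the 10 genes varied together, Mfsd2a least. Their summed level was 8147 ± 3000 CPM and ran from 5582 CPM in mouse 2 (burn) to 15137 CPM in mouse 17 (sham). Mouse 17 had the highest value of 9 genes, and its sum was 2.13 times the median. Mfsd2a was highest in mouse 24 instead, at 388 CPM against 387 CPM in mouse 17. Mouse 19 (sham) was among the 3 highest for all 10 genes and mouse 20 (burn) for 8, whereas mouse 2 and mouse 18 (sham) were among the 3 lowest for 9 each. High and low libraries therefore occurred in both treatment groups.

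**Figure D2:**
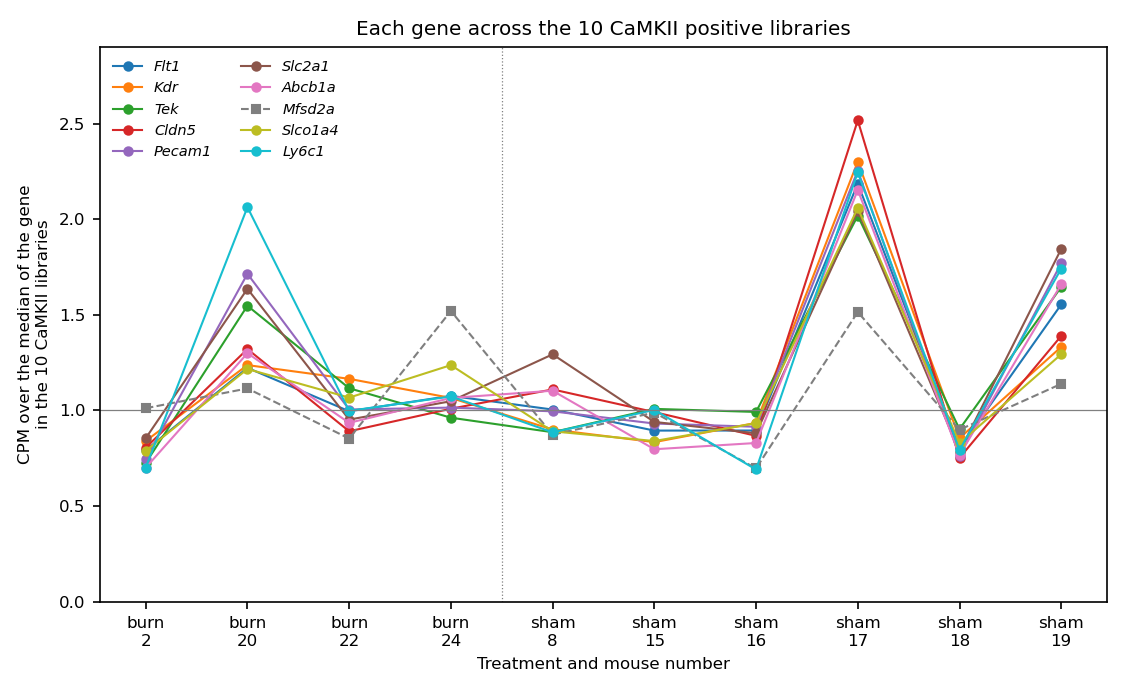
Each gene across the 10 CaMKII positive libraries (y axis, CPM divided by the median of that gene over the 10 libraries; x axis, treatment and mouse number). Lines only join the points of 1 gene, and Mfsd2a is dashed. Nearly all genes peak together in mouse 17, with lower peaks in mice 19 and 20, and are low in mice 2 and 18.

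The order of mice differed between populations for some mice and was shared for others. Mouse 2 had the lowest sum of the 10 CaMKII positive libraries, the second highest of the 16 double-positive libraries and the highest of the 17 ACSA2-positive libraries. Mouse 17 had the highest sum in both CaMKII positive and CD11b-positive libraries and was at rank 7 in the other 2 populations. In ACSA2-positive libraries the sum ran from 589 CPM in mouse 12 (sham) to 2381 CPM in mouse 2 (burn). In double-positive libraries it ran from 156 CPM in mouse 16 (sham) to 995 CPM in mouse 10 (burn), whose sum was 4.73 times the median and which was highest for all 10 genes. The same library had the highest sums of mural and fibroblast markers of the double-positive libraries, at 111 and 130.2 CPM. In CD11b-positive libraries the sum stayed between 128 and 318 CPM. There mouse 2 had 0 counts of Tek, Cldn5, Abcb1a, Mfsd2a and Slco1a4, where 3 counts would have been 0.0664 CPM.

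Because most of the genes varied together from library to library, the CPM of each was divided by that of Flt1 and the ratio compared between populations. For 7 genes the median ratio in CaMKII positive and ACSA2-positive libraries was nearly equal. The ratio for Kdr was 0.199 (0.166 to 0.227 over libraries) and 0.195 (0.146 to 0.309), and for Slco1a4 0.493 (0.412 to 0.569) and 0.4998 (0.414 to 0.581). For Abcb1a it was 0.361 and 0.349, for Cldn5 0.231 and 0.239, for Tek 0.144 and 0.1397, for Pecam1 0.1799 and 0.171, and for Ly6c1 0.156 and 0.141. These genes kept their proportions to Flt1 while their mean levels, like that of Flt1, differed by 7.83- to 8.99-fold between the 2 populations. The ratio for Slc2a1 was 0.4702 (0.432 to 0.618) in CaMKII positive and 1.40 (0.759 to 4.404) in ACSA2-positive libraries, which do not overlap. For Mfsd2a it was 0.108 (0.0839 to 0.171) and 0.586 (0.336 to 2.05), which do not overlap either. In double-positive and CD11b-positive libraries the median ratio was 0.135 and 0.104 for Tek, and 0.453 and 0.354 for Slco1a4, but 0.913 and 0.875 for Kdr, 1.64 and 3.42 for Pecam1 and 5.81 and 5.55 for Slc2a1. In those libraries Kdr, Pecam1 and Slc2a1 were thus high relative to Flt1.

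**Figure D3:**
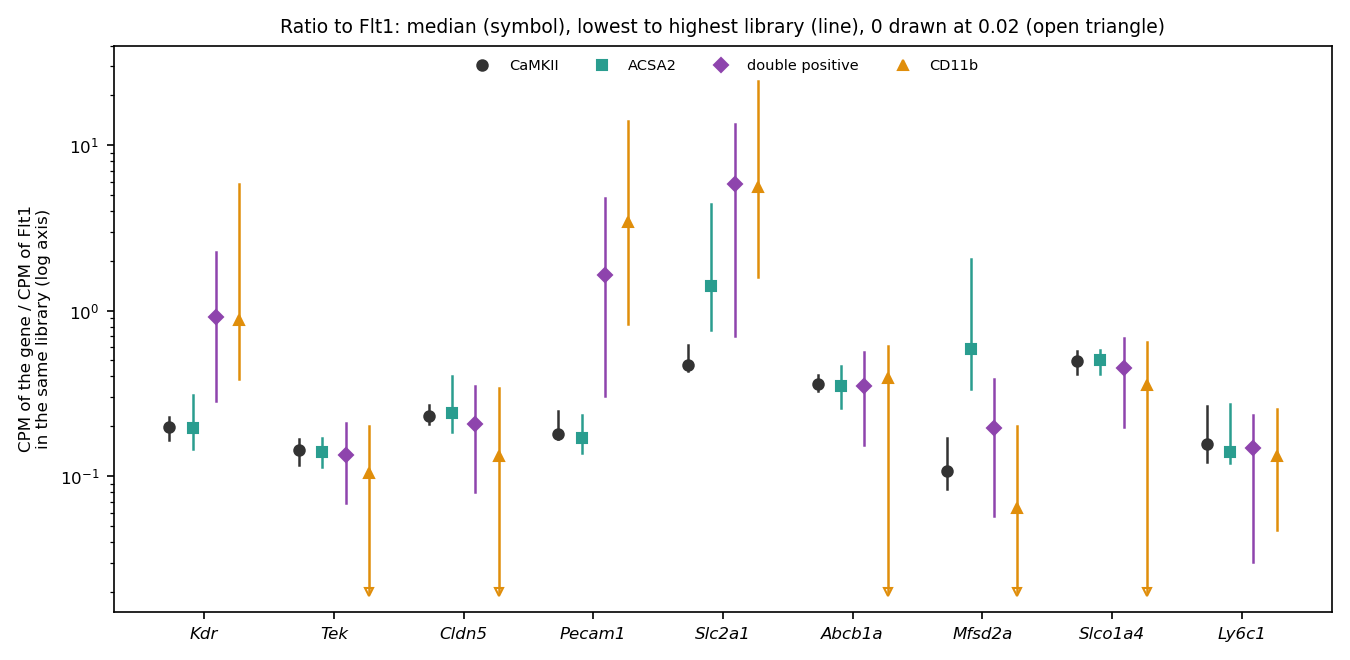
Ratio of each gene to Flt1 within the same library (y axis, CPM over CPM, log axis) for the 9 other genes on the x axis, by sorted population. Symbols are medians and lines run from the lowest to the highest library, with 0 drawn at 0.02. CaMKII positive and ACSA2-positive symbols coincide except for Slc2a1 and Mfsd2a, and Kdr, Pecam1 and Slc2a1 are higher in the other 2 populations.

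Other genes were ranked by the Pearson correlation of log2(CPM + 0.5) with the mean of the 10 genes over the 10 CaMKII positive libraries, as a description of likeness among 13006 genes with a mean of at least 5 CPM. The 5 closest genes outside the 10 were Clic5 (0.996), Adgrf5 (0.996), Myh9 (0.988), Arhgap29 (0.988) and Parvb (0.984). All 5 were highest in mouse 17, so 1 library carries much of the range. Adgrf5, an adhesion receptor of endothelial cells, had a mean of 1076 ± 422 CPM in CaMKII positive and 132 ± 59.2 CPM in ACSA2-positive libraries. Myh9, the heavy chain of non-muscle myosin, was different across populations, with 610.2 CPM in CaMKII positive and 793 CPM in CD11b-positive libraries. Over all 58 libraries and 12534 genes, the closest were Jcad (0.997), Spock2 (0.996), Adgrf5 (0.992), Adgrl4 (0.992) and Podxl (0.992), where the points differ mainly by population. Jcad, a protein of endothelial cell junctions, had a mean of 1346 ± 518 CPM in CaMKII positive and 9.01 ± 7.03 CPM in CD11b-positive libraries. Of the 10 genes themselves, Mfsd2a was least like the mean in CaMKII positive libraries (0.695) and Pecam1 over all libraries (0.783).

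Other endothelial and barrier genes were followed by lists in the comparison of CaMKII positive with ACSA2-positive libraries, where the median log2FC of all genes was -0.026 and that of the 10 genes 2.93. Each count that follows stands against 14.1% of all genes called higher and 4.34% called lower. Of the 6 ligands of the growth factor receptors, 1 was called higher and 1 lower, with a median of -0.11. Vegfa, the main ligand of Kdr, had 522 ± 266 CPM in CaMKII positive and 610.2 ± 92.6 CPM in ACSA2-positive libraries, a log2FC of -0.55 ± 0.27. Vegfb was lower in CaMKII positive libraries, at -1.09 ± 0.12, and Vegfc, with 11.1 and 2.87 CPM, had 1.54 ± 0.66 and was not called. The 1 called higher was Angpt2, a ligand of Tek, at 2.98 ± 0.84, named after its value was seen. Of 10 further endothelial receptors 9 were called higher, with a median of 2.81 (14.1% of all genes). Ptprb, a phosphatase that acts on Tek, had 2.86 ± 0.49 and Eng, a co-receptor for TGF-beta ligands, 2.80 ± 0.19. The exception was S1pr1, a sphingosine phosphate receptor also found on astrocytes, at -0.89 ± 0.13, short of the fold threshold.

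Among 14 junction and adhesion genes 9 were called higher (median 2.62). Cdh5, the cadherin of endothelial junctions, had 2.98 ± 0.35, while the scaffold gene Tjp1 (0.67 ± 0.087) and Jam2 (-0.04 ± 0.11) were not called. Among 15 transporters of the barrier 12 were called higher (median 1.964). Of these, the taurine carrier Slc6a6 had 2.74 ± 0.15 and the large amino acid carrier Slc7a5 1.82 ± 0.16. Slco1c1, a thyroid hormone carrier, resembled Mfsd2a in having a difference that was not called, 0.44 ± 0.32, with 1178 and 784 CPM. All 14 endothelial transcription factors were called higher (median 2.58), among them Klf2 (2.498 ± 0.23), Klf4 (2.45 ± 0.22) and Epas1 (1.25 ± 0.34). Among 14 Wnt and norrin genes 6 were called higher and 2 lower (median 0.71; 14.1% and 4.34% of all genes). Those called higher included the transcription factor Lef1 (1.87 ± 0.40), beta-catenin Ctnnb1 (1.41 ± 0.11) and Apcdd1 (2.38 ± 0.43). The 2 called lower, Wnt7b and Ndp at -1.07 ± 0.25 and -1.14 ± 0.34, encode secreted ligands and are named because they were the only ones.

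Among 6 vesicle genes 4 were called higher (median 2.35), with Cav1, the caveolae protein, at 2.41 ± 0.38 and Cavin1 at 2.29 ± 0.38. Cav2 had 0.58 ± 0.18, below the fold threshold. Of 7 arterial genes 5 were called higher, with the Notch ligand Dll4 at 2.38 ± 0.43, but Jag1 and Hey1 at 0.28 ± 0.24 and -0.01 ± 0.32 were not. Of 6 venous genes 3 were called higher, with von Willebrand factor (Vwf) at 2.85 ± 0.37, whereas Ephb4 (0.79 ± 0.37) and Nr2f2 (0.02 ± 0.45) were not. Genes of both vessel segments were therefore among those called. Abcb1b, the close paralogue of Abcb1a, had another order of populations: 31.0 CPM in CaMKII positive, 10.4 in ACSA2-positive, 61.2 in double-positive and 50.4 in CD11b-positive libraries. Its log2FC was 1.33 ± 0.13 against ACSA2-positive and -1.15 ± 0.14 against double-positive libraries, both called. Ly6c2, the paralogue of Ly6c1, had 27.6, 1.66, 0.991 and 6.60 CPM in the same order.

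**Figure D4:**
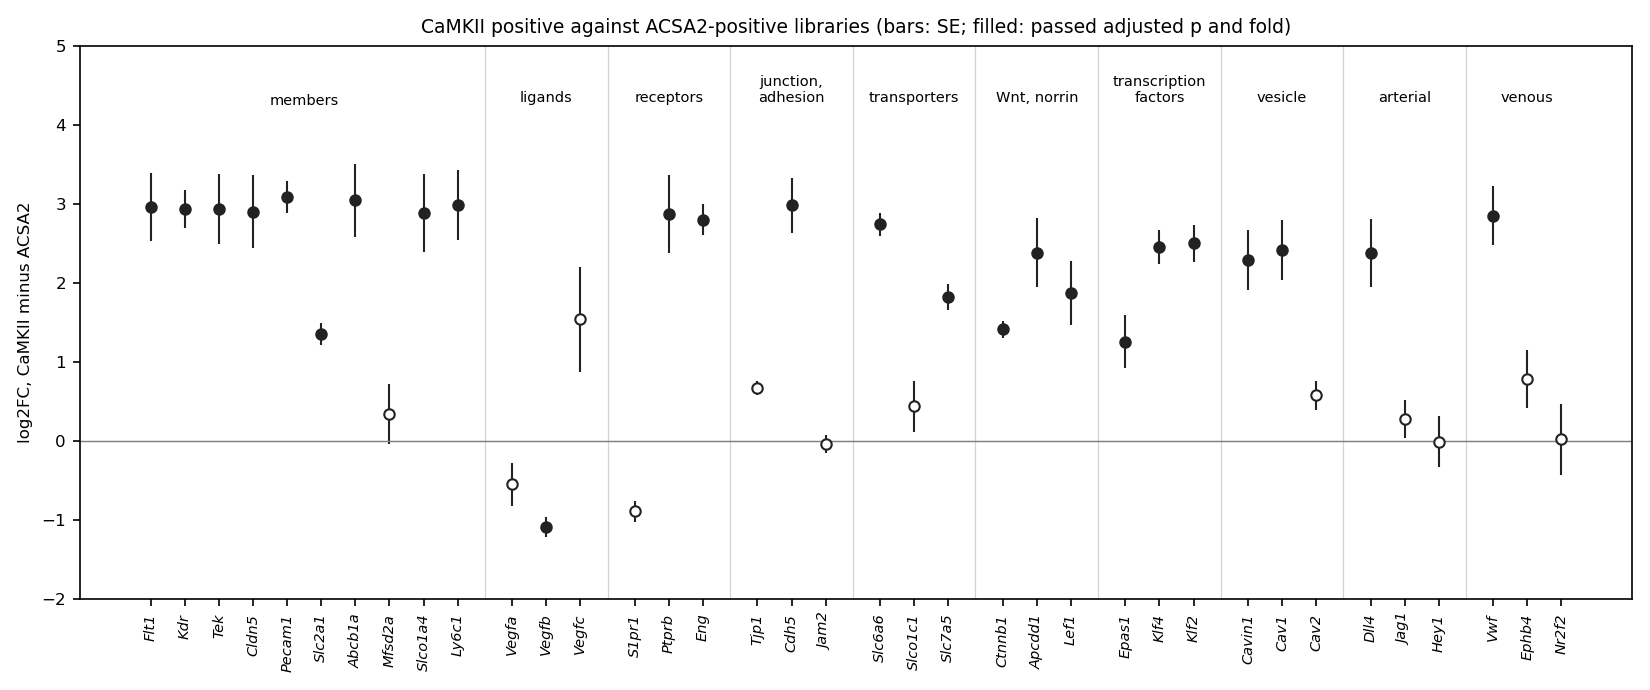
Difference between CaMKII positive and ACSA2-positive libraries (y axis, log2FC with SE) for the 10 genes and the named genes of each list (x axis). Filled points passed both thresholds. The 10 genes lie near 3 except Slc2a1 at 1.35 and Mfsd2a at 0.34, and Vegfa and Vegfb lie below 0.

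Burn was compared with sham within each population, with sequencing batch in the model. In CaMKII positive libraries the Flt1 level was 1669, 2577, 2098 and 2268 CPM in burn mice 2, 20, 22 and 24, and 1689, 2001 and 4607 CPM (lowest, median, highest) in the 6 sham mice. The Cldn5 level was 394, 647, 436 and 494 CPM in the same burn mice and 368, 515 and 1232 CPM in sham mice. The Mfsd2a level was 258, 285, 218 and 388 CPM in burn and 178, 241 and 387 CPM in sham mice. The groups overlapped for all 10 genes, where burn and sham ranges lay apart for 0.37% of all genes. None of the 10 was called, and neither was any of the 28107 genes tested (0%). The log2FC ran from -0.32 ± 0.32 for Cldn5, with the smallest unadjusted p of the 10 genes at 0.341 (edgeR), to 0.17 ± 0.24 for Mfsd2a. At an unadjusted p under 0.05, 0 of the 10 genes passed by edgeR and 0 by DESeq2, against 2.99% of all genes higher and 0.911% lower in burn by edgeR, and 1.09% higher and 1.69% lower by DESeq2. Without mouse 17 the sign of the differences changed for most genes: 8 of 10 were then above 0, against 2 of 10 with it.

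In ACSA2-positive libraries all 10 genes had a log2FC above 0, with a median of 0.57 against 0.045 for all genes, and none was called among 27930 genes (0%). The Flt1 level was 194, 316 and 622 CPM (lowest, median, highest) in 9 burn mice and 67.0, 239 and 375 CPM in 8 sham mice, a log2FC of 0.64 ± 0.24. For Slco1a4 it was 113, 175 and 311 CPM in burn and 30.4, 116 and 175 CPM in sham mice, a log2FC of 0.67 ± 0.24. Mice 2 and 24 (burn) were highest and mice 12 and 18 (sham) lowest, and the groups overlapped for all 10 genes (ranges lay apart for 0.0143% of all genes). At an unadjusted p under 0.05, 8 genes were higher in burn, all but Slc2a1 (0.14 ± 0.083) and Mfsd2a (0.25 ± 0.16), against 7.23% of all genes higher and 3.46% lower. The lowest adjusted p of the 10 was 0.458 by edgeR, and 4 genes had an unadjusted p under 0.05 by DESeq2 (4.09% of all genes higher). By edgeR the number under that level fell most without mouse 11 or mouse 24. Without mouse 11, the only burn library of batch 2, it was 0 (7.16% of all genes), and without mouse 24 it was 4 (5.34%). Within batch 3 (5 burn, 5 sham) it was 4 (5.74%). With batch in the model, leaving out mouse 11 also takes sham mice 12 and 13 of batch 2 out of the burn difference. Their sums of the 10 genes were low, at 589 and 848 CPM. Without mouse 11 all 10 genes were still above 0, with a median of 0.39, and Flt1 was at 0.47 and Slco1a4 at 0.52. Within batch 3 the log2FC of Flt1 was 0.61 ± 0.25. The sum of the 8 endothelial markers was 742 ± 259 CPM in burn and 458 ± 226 CPM in sham mice. It includes Flt1, Kdr, Tek, Cldn5 and Pecam1, so it moves with the genes tested and is no separate reading. The sum of the 7 astrocyte markers was 37802 ± 3159 and 41435 ± 5265 CPM. The 10 mural markers summed to 936 ± 96.4 CPM in burn and 795 ± 287 CPM in sham mice, with 433 CPM in mouse 12 and 444 CPM in mouse 18, the same 2 mice that were lowest for most of the 10 genes. The part of a differing content of endothelial or mural cells in this result was not tested.

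In CD11b-positive libraries 9 of the 10 genes had a log2FC below 0, with a median of -0.86 against 0.0022 for all genes, and again none of 26079 genes was called (0%). The Flt1 level was 3.16, 10.5 and 24.8 CPM in 8 burn mice and 6.22, 20.2 and 55.3 CPM in 7 sham mice, a log2FC of -0.996 ± 0.34. The Abcb1a level was 0, 4.44 and 6.96 CPM in burn and 3.81, 9.50 and 23.1 CPM in sham mice, a log2FC of -1.32 ± 0.47. Sham mice 16 and 17 were high for most genes. Burn mice 2 and 10 were among the 3 lowest for 7 genes each and sham mouse 8 for 6, all from batch 1, where Flt1 was at a mean of 6.02 CPM in burn (n = 3) and 6.22 CPM in sham (n = 1). The groups overlapped for all 10 genes (ranges lay apart for 0.0153% of all genes). At an unadjusted p under 0.05, 4 genes were lower in burn, namely Flt1, Abcb1a, Kdr (-0.47 ± 0.19) and Slc2a1 (-0.30 ± 0.10), against 3.58% of all genes lower and 4.23% higher. The lowest adjusted p of the 10 was 0.639 by edgeR, and 5 genes had an unadjusted p under 0.05 by DESeq2 (2.53% of all genes lower). By edgeR it was 7 genes within batch 3 (5 burn, 5 sham), where 3.81% of all genes were lower. It was 7 without mouse 7 (3.79%) or mouse 15 (3.44%), 6 without mouse 2 (3.99%) or mouse 8 (4.02%), and 3 to 5 without any other mouse. Without the batch term the median was -1.33 and 6 genes passed that level (3.58% of all genes lower). The 8 endothelial markers summed to 78.8 ± 14.9 CPM in burn and 109 ± 35.8 CPM in sham mice. They include Flt1, Kdr, Tek, Cldn5 and Pecam1, so their sum moves with the genes tested and is no separate reading. The 7 border macrophage and monocyte markers summed to 412 ± 110 and 295 ± 105 CPM, and the 7 microglia markers to 23992 ± 2577 and 24562 ± 4003 CPM. The part of these cell types in the result was not tested. Pecam1, at 0.097 ± 0.094, was the only one of the 10 genes above 0.

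In double-positive libraries 6 of the 10 genes had a log2FC above 0 (median 0.18), and none of 26707 genes was called (0%). The Flt1 level was 9.98, 20.5 and 268 CPM in 9 burn mice and 7.21, 15.6 and 29.7 CPM in 7 sham mice. The 3 libraries of batch 1 (mice 2, 7 and 10) were all burn and held the highest Flt1 levels of the population, and in batch 3 the mean was 16.3 ± 4.002 CPM in burn and 12.9 ± 4.35 CPM in sham mice (n = 5 each). With batch in the model the log2FC of Flt1 was 0.33 ± 0.30, and without that term it was 1.81. None of the 10 genes had an unadjusted p under 0.05, against 3.48% of all genes higher and 3.53% lower, and the smallest p was that of Mfsd2a (0.83 ± 0.40, p = 0.0531 by edgeR). DESeq2 gave 1 gene under that level, higher in burn, where 2.06% of all genes were. By edgeR without the batch term 7 were, where 4.44% of all genes were higher. No gene in this population had burn and sham ranges that lay apart (0% of 26707).

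**Figure D5:**
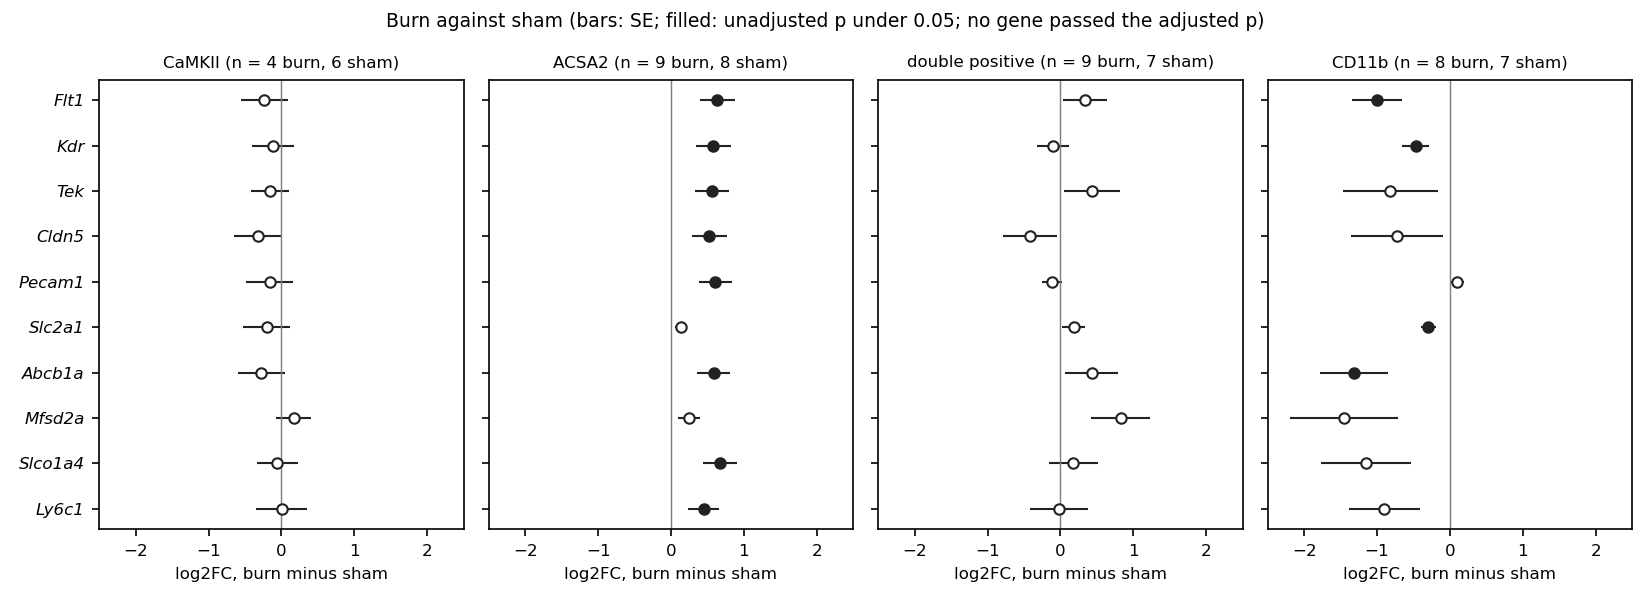
Difference between burn and sham in each sorted population (x axis, log2FC with SE) for the 10 genes (y axis). Filled points had an unadjusted p under 0.05, and no gene passed the adjusted p. Points lie around 0 in CaMKII positive libraries, right of 0 in ACSA2-positive and left of 0 for 9 genes in CD11b-positive libraries.

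The burn difference in CaMKII positive libraries was tested against that in each other population. None of the 10 genes was called in any of the 3 tests, where the calls among all genes were 0.0151% against double-positive, 0.00302% against ACSA2-positive and 0.0302% against CD11b-positive libraries. The smallest unadjusted p against ACSA2-positive libraries was that of Pecam1, with a log2FC of -0.72 ± 0.34, p = 0.0399 and an adjusted p of 0.662 (edgeR). Against CD11b-positive libraries it was that of Mfsd2a, with 1.63 ± 0.61, p = 0.0104 and an adjusted p of 0.459 (edgeR). Against double-positive libraries it was that of Slc2a1, with -0.39 ± 0.28 and p = 0.173 (edgeR). The difference between the burn effects in ACSA2-positive and CD11b-positive libraries, whose signs were opposite for most of the genes, was not tested.

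Among the 10 genes and all listed genes together, the 2 with the smallest p in each population were taken as well, and none passed the adjustment. In CaMKII positive libraries they were Acta2, the smooth muscle actin, with 31.0 ± 31.7 CPM in burn and 87.5 ± 99.9 CPM in sham mice (log2FC -1.70 ± 0.41), and Gkn3, a gene of arterial endothelium, with 5.81 ± 3.34 and 17.7 ± 5.20 CPM (-1.62 ± 0.43). The adjusted p was 1.00 for both (edgeR). In ACSA2-positive libraries Flt4, the receptor for Vegfc, had a log2FC of 1.01 ± 0.24 with an adjusted p of 0.458 (edgeR). In CD11b-positive libraries they were Tfrc, the transferrin receptor, at -0.46 ± 0.13, and Camk2a at -0.47 ± 0.15. In double-positive libraries Angpt1, a ligand of Tek, had 0.3597 CPM in burn and 0.0418 CPM in sham mice, and Slc32a1, the vesicular GABA carrier, 0.0919 and 0.00796 CPM, where 3 counts are 0.0557 to 0.212 CPM.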

How the data were processed

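RNA of cells sorted from single mice was sequenced (total RNA after rRNA depletion, paired ends, 3 sequencing batches). The authors trimmed the reads (fastp, the first 15 bases removed), aligned them with STAR to a mouse genome (GRCm39 and mm10 are both named in the submitters' notes) and deposited raw counts per Ensembl gene made with GenomicAlignments, in 1 table for each population. The deposited normalised tables on a log2 scale were not used. Whether strand was used in counting is not given in the sources used here.

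As in the study, mouse 3 was dropped for its ulcerated skin and mouse 8 for its double-positive library only, and 58 of 63 libraries were kept. Counts were tested with edgeR 4.0.16 (R 4.3.3; TMM scaling, quasi-likelihood test, batch as a covariate) after removing genes with a summed count under 10, and p-values were adjusted by Benjamini-Hochberg across every gene fitted. Genes were called at an adjusted p up to 0.05 where the log2 fold change was 1 or more in size. SE is the fold change over the root of the F statistic. CPM is the count over the library total. The scripts were tested on simulated counts. Alternatives were DESeq2 1.42.0, other scalings and filters, no batch term, batch 3 alone, all deposited libraries, the mouse as a block and leaving out each mouse.

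The members and lists were chosen with earlier results of these data known. Named genes were all 10 members, the 3 highest of each list in CaMKII positive libraries, the paralogues Abcb1b and Ly6c2, the 2 smallest p of each burn comparison (1 of them is not reported here), and the 5 genes most like the members. Angpt2, Wnt7b and Ndp were named after their values were seen. Equal numbers mark the same mouse. Deviations from group means of libraries from 1 mouse had a median correlation of 0.0704 (-0.158 to 0.278, 74 pairs). No 2 libraries held equal counts. Exon lengths came from GENCODE M21 and promoters from RefSeq, both on GRCm38, so no position was read from the authors' alignments. Of 56980 gene IDs 52073 had a name. Floors of 3 counts cover counting error only.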

Additional observations from a re-analysis of the deposited data

Results flagged for a closer look

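In 8 of 80 groups of a gene, population and treatment, 1 library stood apart from the others of its group by Dixon's criterion. Chance does so in about 1 of 20 groups, but the groups of different genes share libraries. Most of the genes vary together over them, so the 80 groups are not independent and the count is not set against that rate. Of the 8, 6 were the double-positive burn library of mouse 10. It had 268.175 CPM of Flt1 (next highest of the group 115), 76.1 CPM of Kdr (44.5), 33.5 CPM of Tek (16.0), 57.4 CPM of Cldn5 (26.8), 119 CPM of Abcb1a (39.5) and 39.8 CPM of Ly6c1 (15.0). The other 2 were the CaMKII positive sham library of mouse 17, with 939 CPM of Kdr (next highest 544) and 1232 CPM of Cldn5 (681). The same library of mouse 17 had the lowest astrocyte marker sum (12330 CPM) and the lowest microglia marker sum (421 CPM) of its population, while mural markers stood at 1284 CPM against a median of 1341 CPM. In mouse 10, microglia markers stood at 23290 CPM, oligodendrocyte markers at 419 CPM and the 8 endothelial markers at 598 CPM. The endothelial sum includes Flt1, Kdr, Tek and Cldn5, so it is no separate reading of them. The part of the astrocyte, microglia, mural and oligodendrocyte markers in the values was not tested.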

How the results depend on the processing

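Leaving out mouse 10 lowered the double-positive means by over 1.5-fold for Flt1, Tek, Cldn5, Abcb1a and Ly6c1, as given with the levels. No burn comparison called any of the 10 under any alternative run. Genes called for burn against sham, 0 in each population by edgeR, were 3, 2, 27 and 80 by DESeq2 in CaMKII positive, double-positive, ACSA2-positive and CD11b-positive libraries, 14 and 4 without the filter on low counts in double-positive and ACSA2-positive libraries, and 136 in double-positive libraries when the left-out libraries were added. Leaving out 1 mouse, the log2FC of burn in CaMKII positive libraries ran from -0.33 to 0.015 for Flt1 and from -0.45 to 0.0058 for Cldn5, both above 0 only without mouse 17. Between double-positive and CD11b-positive libraries, batch 3 alone called 1056 genes and 0 of the 10, and the difference reversed for Flt1 (-0.71), Tek (-0.55), Cldn5 (-0.34), Abcb1a (-0.87), Slco1a4 (-0.81) and Ly6c1 (-0.91), while Mfsd2a fell from 2.00 to 0.62 and was no longer called. That comparison called 2 of the 10 with no minimum fold change, and 1 to 3 when a mouse was left out, with Tek between 0.59 and 1.49 and Cldn5 between 0.83 and 1.59. The main fit called 1 of the 10, where 6.37% of all genes were called higher. The shares of all genes under the other settings are not given here, so these counts are not read as a result about the 10 genes. With no minimum fold change 10861 genes were called between CaMKII positive and ACSA2-positive libraries. For the difference of the burn effect between CaMKII positive and double-positive, ACSA2-positive or CD11b-positive libraries, DESeq2 called 190, 177 and 266 genes, batch 3 alone 0, 7 and 1, and all deposited libraries 13 and 2 in the first 2. Leaving out 1 mouse gave 1 to 14, 0 to 14 and 1 to 18. The causes of these shifts were not tested.

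With the mouse as a block, the comparison of double-positive with CD11b-positive libraries called 1529 genes against 2647 without it, and the 3 differences of the burn effect called 0, 0 and 0. The block changed no call of the 10 genes between populations, and it cannot be used within a population, where each mouse has 1 library.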

Other observations

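Mural cells, the pericytes and smooth muscle cells that surround endothelial tubes, were followed by 10 markers. In CaMKII positive libraries their summed level was 1398 ± 325 CPM against 870 ± 215 CPM in ACSA2-positive libraries, and 5 of the 10 were called higher in CaMKII positive libraries with a median log2FC of 1.03, where 14.1% of all genes were called higher. The pericyte genes Rgs5 (0.85 ± 0.34) and Pdgfrb (-0.48 ± 0.28) were not among them. Between burn and sham in CaMKII positive libraries the mural sum was 1155 ± 248 CPM (n = 4) and 1561 ± 272 CPM (n = 6).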
